A study of Mus musculus with 6 samples.

Results

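Lymphocyte markers are the genes by which T cells, natural killer (NK) cells and B cells are recognised, and 34 of them were followed through inguinal fat of mice in which the gene Tfg was to be deleted in adipocytes. The genes were listed by symbol, with no threshold on their values, and the list was drawn up with earlier results of these arrays known. Of the 34 genes 31 were measured by a probe set, that is, a group of array probes summarised to 1 signal, with exactly 1 gene symbol, out of 30702 genes measured in this way. The probe sets annotated for Foxp3 and for Gata3 also carry other genes, and no probe set was named for Lck, so these 3 genes were not analysed here.

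The arrays held total RNA of inguinal subcutaneous white adipose tissue (WAT) from male C57BL/6 mice of 2 months. The KO group comprised 3 mice of the genotype TFG f/f; Adipoq-ERT2Cre, in which both Tfg alleles are flanked by loxP sites and a tamoxifen-activated Cre recombinase is driven by the promoter of the adiponectin gene. The WT group comprised 3 TFG f/f mice, labelled wild type, which carry the floxed alleles without Cre. Mice of both genotypes received tamoxifen intraperitoneally for 5 days, and the tissue was taken 2 weeks later. The adiponectin promoter is active in adipocytes, so the lymphocytes and stromal cells of the fat are not expected to carry the deletion.

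T cells read antigen through a receptor whose signal passes through the CD3 chains, and B cells through surface immunoglobulin coupled to CD79A and CD79B. NK cells use receptors of the NK gene complex and kill with granzymes and perforin. White fat holds resident T cells, NK cells and innate lymphoid cells, and the inguinal depot also surrounds a lymph node, which is rich in naive T and B cells. Whether that node was removed before RNA extraction is not stated in the labels.

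The targeted gene, Tfg, gave no lower signal with the KO label. Log2 signals of 7.97, 7.94 and 7.91 in the WT group stood against 7.99, 8.21 and 8.03 in the KO group (adjusted p = 0.345 by limma, exact 2-sided permutation p = 0.1, the smallest that 3 against 3 arrays allow). Which exons its probe set reads is not given, so the groups are called WT-labelled and KO-labelled arrays, and every direction below rests on these labels. The median signal of all 65956 probe sets was 6.96 to 7.02 with the WT label and 6.47 to 6.76 with the KO label, and the probe sets as a whole shifted by a median of -0.37 on the log2 scale. At an adjusted p under 0.05, the threshold for a call throughout, 3509 probe sets rose and 10282 fell with the KO label. This split became 5146 higher and 3259 lower once each array was centred on its median, and 4032 and 2212 after quantile normalization. The array KO 2 correlated with KO 1 and KO 3 at 0.96 and 0.965 across probe sets, while KO 1 and KO 3 correlated at 0.986. Adipocyte markers, which define the tissue, had mean log2 signals of 8.61 to 10.15 with the WT label and 11.72 to 13.10 with the KO label.

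All 31 lymphocyte markers had a lower mean on the KO-labelled than on the WT-labelled arrays, as had 21558 of all 30702 named genes. Of the 31 markers 10 fell past the test while 0 rose. The 10 were Cd3g, Cd2 and Cd28 of the T cell genes, Klrb1c of the NK genes, Cd22, Cd79a, Ms4a1, Fcer2a and Blk of the B cell genes, and the homing receptor gene Ccr7. These 10 of 31 genes, or 32.3%, stand beside 15.6% of all probe sets called lower and 5.32% called higher. The median change of the markers was -0.52, against -0.37 over all probe sets and -0.27 over all named genes. In bulk tissue, fewer lymphocytes and less RNA per lymphocyte cannot be told apart. The part of array scaling and of RNA from other cells in the lower signal was not tested. Nothing in the labels says that mice of the 2 genotypes were littermates or were processed together.

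The size of the fall was modest for most genes. The change ranged from -1.10 for Klrb1c to -0.10 for Prf1, with standard errors of 0.10 to 0.27. In 23 of the 31 genes all 3 KO-labelled values lay below all 3 WT-labelled values, a pattern shown by 44.9% of all probe sets. In the other 8 genes (Cd8a, Klrd1, Gzma, Prf1, Il7r, Icos, Cd79b and Pax5) the groups overlapped or touched.

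**Figure D1:**
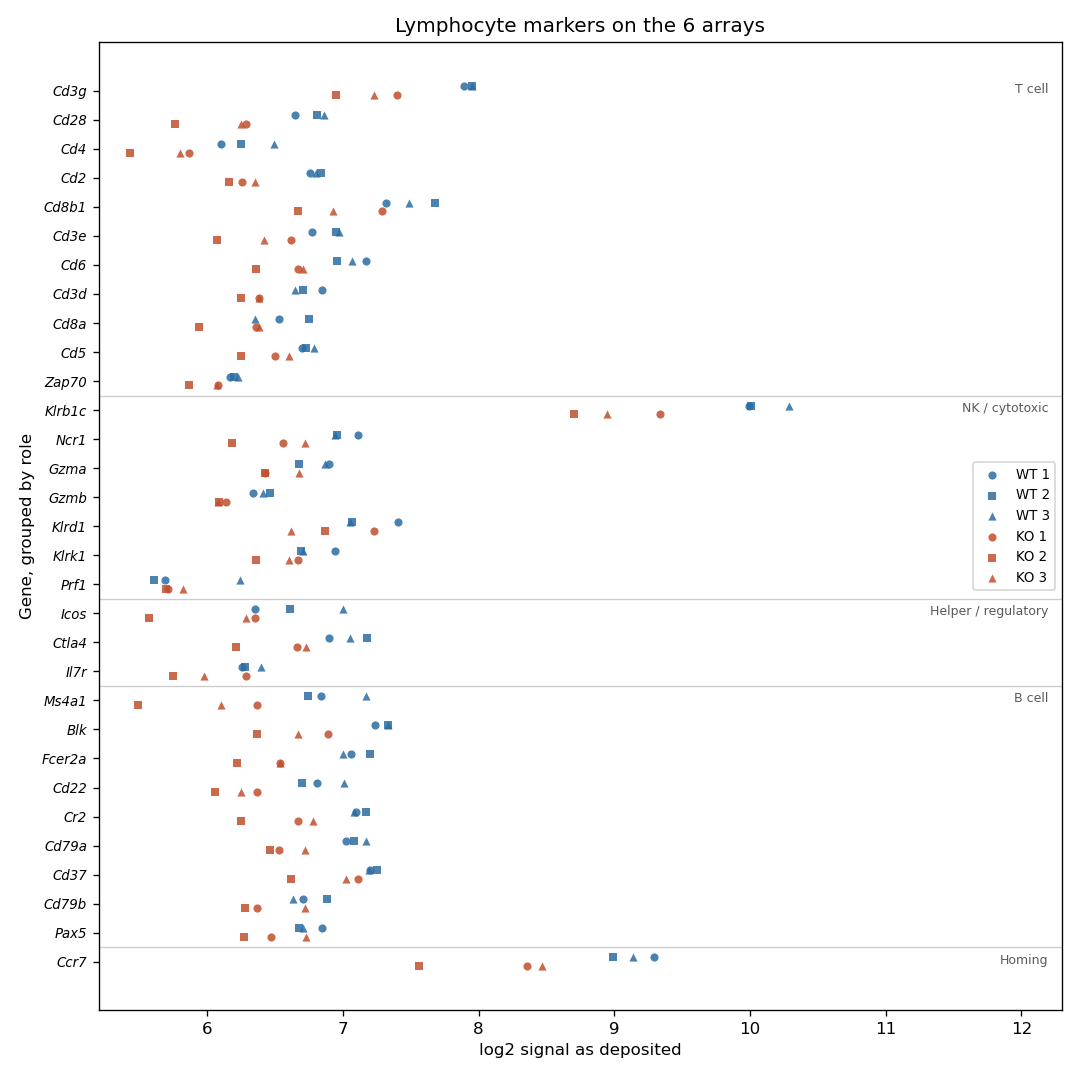
Log2 signal as deposited (horizontal axis) of each of the 31 measured lymphocyte markers (rows, grouped by role and ordered by change within a group) on the 3 WT-labelled arrays (blue) and the 3 KO-labelled arrays (red), with 1 point per array. KO-labelled points lie to the left of all WT-labelled points in 23 rows, and KO 2 (red squares) is lowest or tied for lowest in 28.

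The sequence before the start site is shown for those of the 10 called genes that have a single promoter entry in the RefSeq tables, since these are the promoters of genes that moved the same way. Each is the 250 bases upstream of the annotated start, taken from RefSeq, build GRCm38.p6, and printed 5′ to 3′ on the gene's own strand. Capitals mark matches, searched on both strands, to AGGAAG (the core bound by ETS factors), TGTGGT (bound by RUNX factors), ATTTGCAT (the octamer bound by OCT factors) or CAGCTG (an E-box).
Klrb1c (chr6:128788642-128788891, - strand): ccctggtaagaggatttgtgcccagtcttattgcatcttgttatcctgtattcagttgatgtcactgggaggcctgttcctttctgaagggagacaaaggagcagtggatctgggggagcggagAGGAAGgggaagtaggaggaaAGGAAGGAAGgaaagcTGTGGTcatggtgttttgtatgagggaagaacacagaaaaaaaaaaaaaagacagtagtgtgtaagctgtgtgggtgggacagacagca
Cd79a (chr7:24897247-24897496, + strand): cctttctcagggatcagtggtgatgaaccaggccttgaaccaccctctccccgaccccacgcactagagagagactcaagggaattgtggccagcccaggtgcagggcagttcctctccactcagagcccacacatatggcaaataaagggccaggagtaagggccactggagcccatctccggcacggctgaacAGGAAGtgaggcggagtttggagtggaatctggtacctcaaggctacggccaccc
Cd3g (chr9:44980432-44980681, - strand): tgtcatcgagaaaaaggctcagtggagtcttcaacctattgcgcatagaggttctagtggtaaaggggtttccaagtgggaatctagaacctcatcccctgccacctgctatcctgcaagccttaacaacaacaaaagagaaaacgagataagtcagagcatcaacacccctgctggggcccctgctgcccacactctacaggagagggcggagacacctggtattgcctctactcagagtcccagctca
Cd22 (chr7:30879029-30879278, - strand): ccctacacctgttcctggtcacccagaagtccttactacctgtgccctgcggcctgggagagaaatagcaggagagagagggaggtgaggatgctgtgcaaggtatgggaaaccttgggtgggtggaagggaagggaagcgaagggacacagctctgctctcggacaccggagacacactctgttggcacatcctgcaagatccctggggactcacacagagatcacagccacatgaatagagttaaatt
The Klrb1c promoter held 3 ETS-type matches, of which the last 2 overlap, and 1 RUNX-type match. The Cd79a promoter held 1 ETS-type match, and the windows of Cd3g and Cd22 held none of the 4 motifs. Among the 25 RefSeq promoter windows of 20 measured markers, AGGAAG occurred in 13, TGTGGT in 9, CAGCTG in 2 and ATTTGCAT in 0. The share of all 32851 promoter windows of the same length with a match was 29.5% for AGGAAG, 14.0% for TGTGGT, 13.0% for CAGCTG and 1.60% for ATTTGCAT. These matches describe letters in the window and not binding.

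Among T cell genes, 3 of 11 fell (27.3%, against 15.6% of all probe sets) and 8 did not pass. The median change of the 11 was -0.53. On centred arrays 0 of the 11 fell (4.94% of all probe sets), and after quantile normalization 1 fell (3.35% of all probe sets). Cd3g encodes the gamma chain of the CD3 complex. It gave log2 signals of 7.89, 7.95 and 7.95 on WT-labelled and 7.40, 6.95 and 7.23 on KO-labelled arrays. The groups were well apart, with the WT-labelled values within 0.06 of each other, and Cd3g fell by 0.74 ± 0.14 (SE), or 1.67-fold (limma adjusted p = 0.0361). Cd2, which encodes an adhesion receptor of T and NK cells, read 6.76, 6.84 and 6.80 on WT-labelled and 6.26, 6.16 and 6.35 on KO-labelled arrays. This is a fall of 0.54 ± 0.11 (SE; adjusted p = 0.0364), with little spread in either group (SD 0.04 and 0.10, n = 3 each). Cd28, the gene of the main costimulatory receptor, read 6.65, 6.81 and 6.86 on WT-labelled and 6.29, 5.76 and 6.25 on KO-labelled arrays. It fell by 0.67 ± 0.18 (SE; adjusted p = 0.0466), and KO 2 lay well below the other KO-labelled arrays.

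The other CD3 chains read lower without passing. Cd3d, the delta chain gene, had 6.85, 6.71 and 6.65 on WT-labelled and 6.38, 6.25 and 6.38 on KO-labelled arrays (change -0.40 ± 0.11 SE, adjusted p = 0.0523). Cd3e, the epsilon chain gene, had 6.77, 6.95 and 6.97 against 6.62, 6.07 and 6.42 (change -0.53 ± 0.17 SE, adjusted p = 0.0649). In both genes the groups did not overlap. The 3 CD3 genes form 1 cluster on chromosome 9 in RefSeq (GRCm38.p6), where Cd3d and Cd3g are neighbours on opposite strands with 1355 bases between their start sites.

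The co-receptor genes of helper and cytotoxic T cells also read lower, and none passed. Cd4 read 6.10, 6.25 and 6.49 on WT-labelled and 5.87, 5.43 and 5.80 on KO-labelled arrays (change -0.58 ± 0.17 SE, adjusted p = 0.0565). Cd8b1 read 7.32, 7.68 and 7.49 against 7.29, 6.67 and 6.93 (change -0.53, adjusted p = 0.0821), so that KO 1 almost reached the lowest WT-labelled value. Cd8a, its neighbour on chromosome 6, read 6.53, 6.75 and 6.35 against 6.36, 5.94 and 6.38, where the groups overlapped (change -0.32, 95% interval -0.75 to 0.12, adjusted p = 0.192). The adjacent genes Cd5 and Cd6 encode related scavenger receptors that tune T cell signalling. Cd6 stood at -0.49 ± 0.14 (SE; adjusted p = 0.0535) and Cd5 at -0.29 ± 0.13 (SE; adjusted p = 0.125), without overlap between the groups in either. Zap70, the kinase gene downstream of the CD3 chains, read 6.17, 6.20 and 6.23 on WT-labelled and 6.08, 5.87 and 6.07 on KO-labelled arrays. Its change of -0.19 (95% interval -0.47 to 0.08, adjusted p = 0.205) was smaller than that of the median probe set.

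Of the 7 NK and cytotoxic genes, 1 fell (14.3%, against 15.6% of all probe sets) and 6 did not pass. The median change of the 7 was -0.30. The gene that fell was Klrb1c, which encodes the NK1.1 antigen of C57BL/6 mice and whose promoter is printed above. It read 9.99, 10.01 and 10.29 on WT-labelled arrays and 9.34, 8.70 and 8.95 on KO-labelled arrays. The groups lay 0.65 apart at their nearest values, and the fall of 1.10 ± 0.20 (SE), or 2.14-fold, was the largest of all 31 markers (adjusted p = 0.0354). Klrb1c belongs to a family of similar genes whose probes may share signal. Its relatives are named here after their values were seen. Klrb1a fell by 0.96 and Klrb1f by 0.80 (adjusted p = 0.0354 for each), and Klrb1 fell by 0.55 (adjusted p = 0.0438, and 0.0528 without KO 2). Klrb1b stood at -0.26 without passing (adjusted p = 0.277). On centred arrays Klrb1a passed at -0.63 (adjusted p = 0.0305), while Klrb1f at -0.47 and Klrb1 at -0.22 did not (adjusted p = 0.0585 and 0.248).

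The other 6 NK genes did not pass. Ncr1 encodes the activating receptor NKp46. It read 7.11, 6.96 and 6.94 on WT-labelled and 6.56, 6.18 and 6.72 on KO-labelled arrays (change -0.52 ± 0.17 SE, adjusted p = 0.0653). Klrk1, the gene of the activating receptor NKG2D, stood at -0.24 (adjusted p = 0.209), and its neighbour Klrd1, which encodes CD94, at -0.27 with overlapping groups (adjusted p = 0.295). Among the genes of the killing granule, Gzmb read 6.34, 6.46 and 6.41 on WT-labelled and 6.14, 6.09 and 6.08 on KO-labelled arrays. Its change of -0.30 ± 0.10 (SE; adjusted p = 0.0717) did not pass although the groups were apart. Gzma stood at -0.30 (adjusted p = 0.115), with KO 3 equal to WT 2. The perforin gene Prf1 read 5.69, 5.61 and 6.24 against 5.71, 5.70 and 5.82, so that 2 WT-labelled values lay below every KO-labelled one (change -0.10, 95% interval -0.57 to 0.36, adjusted p = 0.668).

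The 3 measured genes of helper, regulatory and innate-like lymphocytes did not pass. Ctla4, the gene of an inhibitory receptor of regulatory T cells, read 6.90, 7.18 and 7.05 on WT-labelled and 6.66, 6.21 and 6.73 on KO-labelled arrays (change -0.51 ± 0.18 SE, adjusted p = 0.0741). Icos, the gene of an inducible costimulator, read 6.35, 6.61 and 7.00 against 6.35, 5.57 and 6.29, with WT 1 and KO 1 at the same value (change -0.58 ± 0.27 SE, adjusted p = 0.135). Il7r, which encodes the interleukin 7 receptor of naive T cells and innate lymphoid cells, stood at -0.31 (95% interval -0.71 to 0.09, adjusted p = 0.175). Cd28, Ctla4 and Icos follow each other on chromosome 1, and only Cd28 of the 3 passed. No test of a difference among them was made.

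Of the 9 B cell genes 5 fell (55.6%, against 15.6% of all probe sets) and 4 did not pass. The median change of the 9 was -0.55. On centred arrays and after quantile normalization 0 of the 9 fell (4.94% and 3.35% of all probe sets). Without KO 2 there were 2 that fell (10.5% of all probe sets). Whether B cell genes fell more than the T cell or NK genes was not tested. Ms4a1, which encodes CD20, read 6.84, 6.74 and 7.17 on WT-labelled arrays and 6.37, 5.49 and 6.10 on KO-labelled arrays. It fell by 0.93 ± 0.25 (SE), or 1.91-fold, and its adjusted p of 0.04999 by limma lay just inside the threshold. Fcer2a, the gene of the low-affinity IgE receptor CD23, read 7.06, 7.20 and 7.00 against 6.54, 6.22 and 6.54 and fell by 0.65 ± 0.14 (SE; adjusted p = 0.0378). Blk, a Src-family kinase gene, read 7.24, 7.33 and 7.33 against 6.89, 6.37 and 6.67 and fell by 0.66 ± 0.16 (SE; adjusted p = 0.042). In these 3 genes KO 2 was the lowest array and the groups did not overlap.

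Cd22 encodes an inhibitory co-receptor of the B cell receptor, and its upstream sequence is printed above. It read 6.81, 6.70 and 7.01 on WT-labelled and 6.37, 6.06 and 6.25 on KO-labelled arrays, a fall of 0.61 ± 0.14 (SE; adjusted p = 0.0404). The 2 signalling chains of the B cell receptor differed in their call. Cd79a read 7.02, 7.08 and 7.17 on WT-labelled and 6.53, 6.46 and 6.72 on KO-labelled arrays and fell by 0.52 ± 0.12 (SE; adjusted p = 0.0404). Cd79b read 6.71, 6.88 and 6.63 against 6.37, 6.28 and 6.72, where KO 3 exceeded 2 WT-labelled arrays (change -0.28, 95% interval -0.67 to 0.10, adjusted p = 0.188). The intervals of the chains overlap, since that of Cd79a ran from -0.81 to -0.23.

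The remaining B cell genes did not pass. Cr2, the complement receptor gene of B cells and follicular dendritic cells, read 7.10, 7.17 and 7.08 on WT-labelled and 6.67, 6.25 and 6.78 on KO-labelled arrays (change -0.55 ± 0.16 SE, adjusted p = 0.0564). Pax5, the transcription factor gene that fixes B cell identity, stood at -0.26 (95% interval -0.62 to 0.11, adjusted p = 0.209). Cd37, a tetraspanin gene of mature B cells, stood at -0.30 (95% interval -0.68 to 0.08, adjusted p = 0.172).

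Ccr7 encodes the chemokine receptor that guides naive lymphocytes and dendritic cells into lymph nodes. It read 9.29, 8.99 and 9.14 on WT-labelled arrays and 8.36, 7.56 and 8.47 on KO-labelled arrays. The groups were 0.52 apart at their nearest values, and Ccr7 fell by 1.01 ± 0.26 (SE), or 2.01-fold (limma adjusted p = 0.0458). With Klrb1c and Ms4a1 it was among the 3 largest falls.

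**Figure D2:**
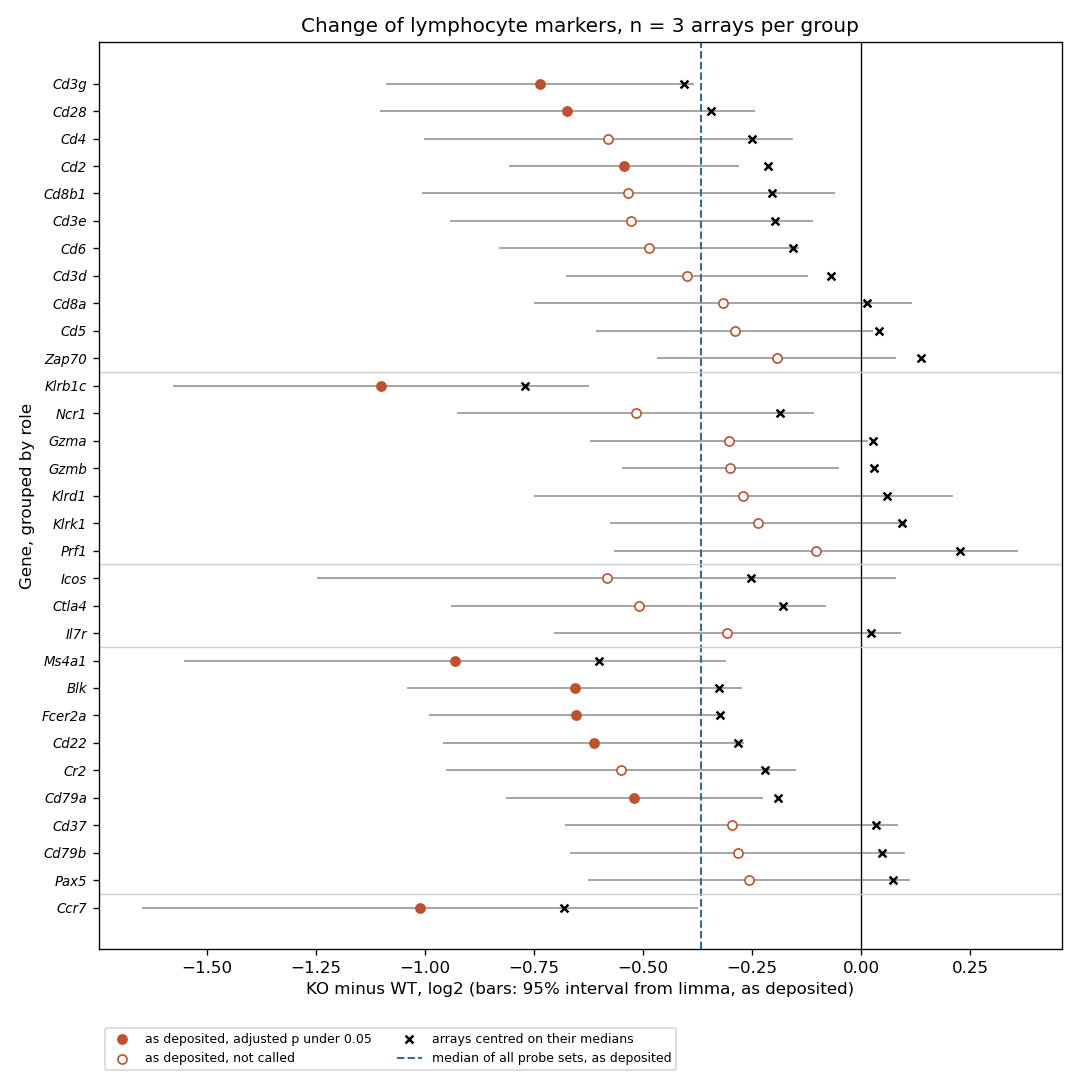
Change of each lymphocyte marker on KO-labelled against WT-labelled arrays (horizontal axis, log2, n = 3 arrays per group), with red circles for the deposited values (filled where called), grey bars for 95% intervals and black crosses for the change once each array is centred on its median. All 31 circles lie left of 0 and scatter around the median of all probe sets at -0.37 (dashed line), and 12 of the 31 crosses lie right of 0.

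Much of this decrease was shared with the arrays as a whole. Of the 31 markers 19 had a change below that of the median probe set and 12 a change above it. The median of the markers was 0.12, 0.12 and 0.05 below the median of all probe sets on WT 1, WT 2 and WT 3, and 0.26, 0.22 and 0.13 below it on KO 1, KO 2 and KO 3. Once each array was centred on its median, the markers had a median change of -0.19, with 19 lower and 12 higher, and only Klrb1c passed (change -0.77, adjusted p = 0.0327). That is 1 of 31, where 4.94% of all probe sets were called lower. After quantile normalization Klrb1c and Cd3g passed (2 of 31, against 3.35% of all probe sets), and the median change was -0.18. Centred changes of the other large falls were -0.68 for Ccr7 (adjusted p = 0.064), -0.60 for Ms4a1 (adjusted p = 0.0793) and -0.41 for Cd3g (adjusted p = 0.0725). On the same centred values Prf1 stood at 0.23 and Zap70 at 0.14, without passing.

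The array KO 2 held the lowest or tied lowest value of 28 of the 31 markers, KO 3 of 2, and KO 1 and WT 2 of 1 each. The median of all probe sets was also lowest on KO 2, at 6.47. The highest or tied highest value was always on a WT-labelled array. Without KO 2 the median change of the markers was -0.36, against -0.27 for all probe sets, and 7 of 31 fell (10.5% of all probe sets). Cd22, Cd79a and Ms4a1 no longer passed there. Without KO 1, 9 of 31 fell (16.2% of all probe sets), with Cd79a and Ccr7 no longer passing and Cd8b1 added. When WT 1, WT 2, WT 3 or KO 3 was left out instead, 0 of the 31 markers and 0 of all probe sets passed limma's test. In these fits 17, 15, 14 and 21 of the 31 markers had an unadjusted p under 0.05. So had 23757, 25102, 21579 and 28697 of all 65956 probe sets.

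The change of genes that fat is not expected to express was read in the same way. The 1082 olfactory receptor genes, which encode odorant receptors of the nose, had a median log2 signal of 7.47 on WT-labelled and 6.67 on KO-labelled arrays. On average 1073 of the 1082 were lower, with a median change of -0.82. In all, 356 of them (32.9%) were called lower, beside 32.3% of the lymphocyte markers. With the WT label, 27 lymphocyte markers had a mean below the olfactory receptor median of 7.47 and 4 a mean above it. Only 2 lay above the 75th percentile of the olfactory receptor genes, at 8.44. With the KO label, 6 markers had a mean above the olfactory receptor median of 6.67. Probe sets differ in how strongly they bind, so these levels do not show whether a transcript was present, which was not tested.

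Antigen receptor gene segments, which are rearranged and transcribed in lymphocytes, were also lower. Of 119 named T cell receptor variable segments 45 fell (37.8%) and 0 rose, with a median change of -0.70. Of 203 named immunoglobulin variable segments 57 fell (28.1%) and 0 rose, with a median change of -0.66. These shares stand beside 15.6% of all probe sets and 32.9% of the olfactory receptor genes. Segments of 1 family resemble each other, so their probe sets may share signal. After centring, 21 and 24 segments were called lower, with median changes of -0.37 and -0.33, beside -0.49 for the olfactory receptor genes. By the same scaling 168 of 1082 olfactory receptor genes and 4.94% of all probe sets were called lower.

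**Figure D3:**
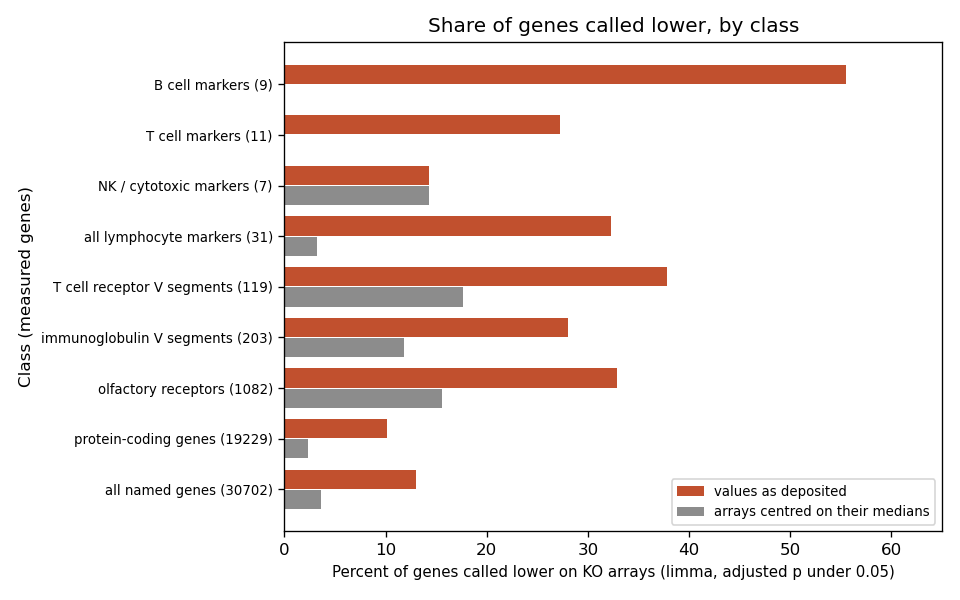
Share of genes called lower on the KO-labelled arrays (horizontal axis, percent of the measured genes given in brackets) for groups of lymphocyte markers, antigen receptor segments, olfactory receptor genes and all genes, with the deposited values (red) and with every array centred at a common median (grey). The lymphocyte markers and the olfactory receptor genes have nearly equal red bars (32.3% and 32.9%), and the grey bars are shorter in every class drawn except the NK genes, where 1 gene of 7 is called both times.

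Further lymphocyte genes were taken from lists of T, B, NK, plasma and regulatory cell genes. Of 14 other T cell genes 4 fell (28.6%, against 15.6% of all probe sets) and 0 rose. The median change of the 14 was -0.41, against -0.37 over all probe sets. In all 14 every KO-labelled value lay below every WT-labelled value, as in 44.9% of all probe sets. Lat, the membrane adaptor gene of the T cell receptor, read 9.03, 8.95 and 9.01 on WT-labelled and 8.50, 7.87 and 8.45 on KO-labelled arrays (a fall of 0.72, adjusted p = 0.0475). Trat1, which encodes an adaptor associated with the T cell receptor, fell by 0.70 (adjusted p = 0.0375) and Sh2d1a, which encodes the signalling adaptor SAP, by 0.54 (adjusted p = 0.0362). With centred arrays 0 of the 14 passed, at a median of -0.08. Of 18 other NK and cytotoxic genes 1 fell (5.6%) and 0 rose, with a median change of -0.39. It was the granzyme gene Gzmc, which went from 7.64 ± 0.16 to 6.81 ± 0.15 (SD, n = 3; limma adjusted p = 0.0354).

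No other B cell or plasma cell gene passed the test as lower, although most were lower on average. Of 17 other B cell genes 0 fell and 1 rose in limma's test, with a median change of -0.33. On average 15 of the 17 were lower. In either direction 9 had an unadjusted p under 0.05 by limma, as had 15329 of all 30702 named genes. In 10 every KO-labelled value lay below every WT-labelled value, as in 44.9% of all probe sets. Nearest to the threshold among the lower genes was Pou2af1, which encodes a B cell transcriptional coactivator (7.13, 7.38 and 7.43 against 6.98, 6.42 and 6.69, change -0.62, adjusted p = 0.054). With centred arrays the median of the 17 was 0.00, with 8 lower and 9 higher. The gene that rose was Ebf1, a transcription factor of early B cells that is also active in adipocytes and their precursors. It read 8.18, 8.34 and 7.61 on WT-labelled and 9.25, 10.26 and 8.96 on KO-labelled arrays (change 1.45 ± 0.38 SE, adjusted p = 0.0467, and 0.0548 without KO 2). Of 8 plasma cell genes 0 passed limma's test and 2 had an unadjusted p under 0.05, beside the same 15329 of 30702 named genes. On average 6 of the 8 were lower, at a median of -0.22, which was 0.11 with centred arrays. Irf4, which acts in plasma cells and T cells and also in adipocytes, read 7.42, 7.35 and 6.82 against 9.12, 12.51 and 9.26. It was 3.10 higher without passing (adjusted p = 0.0551), and KO 2 stood far above the other arrays. Without KO 2 Irf4 was 1.99 higher and passed (adjusted p = 0.0185).

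Of 13 other genes of regulatory T cells and group 2 innate lymphoid cells 0 fell and 1 rose, with a median change of -0.25. The gene that rose was Rora, a nuclear receptor gene that innate lymphoid cells share with many tissues (change 0.57, adjusted p = 0.0461, and 0.0621 without KO 2). Of 18 enzymes and adaptors of antigen receptor signalling 0 fell and 1 rose, with a median change of -0.13. It was Plcg1, which encodes phospholipase C gamma 1, an enzyme of many cell types (change 0.74, adjusted p = 0.0383). These changes went with a rise of adipocyte markers, of which 10 of 14 rose, and the part of adipocytes in Ebf1, Irf4, Rora and Plcg1 was not tested.

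Genes shared by all leukocytes were read beside the lymphocyte markers. Of 19 pan-leukocyte genes 1 fell and 0 rose, with a median change of -0.24, and 17 of them lay above the median probe set. Their mean log2 signal was 6.93 to 6.97 with the WT label and 6.67 to 6.79 with the KO label, so the groups did not overlap. Nor did they for the mean of all named genes, at 7.31 to 7.36 with the WT label and 7.08 to 7.22 with the KO label. The gene that fell was the tetraspanin gene Cd53, which went from 7.60 ± 0.06 to 7.12 ± 0.12 (SD, n = 3; limma adjusted p = 0.0414), and with centred arrays 0 of the 19 passed. Ptprc, chosen after its values were seen because it encodes the leukocyte antigen CD45, read 7.21, 7.04 and 7.11 against 7.01, 7.12 and 6.86 with overlapping groups (change -0.12, adjusted p = 0.425).

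Lymph node stroma was examined because the inguinal depot surrounds a node. Of 13 stromal genes 1 fell and 0 rose, with a median change of -0.16. Their mean log2 signal was 7.23 to 7.35 with the WT label and 7.00 to 7.29 with the KO label, with overlap. Ccl19, whose product attracts cells through CCR7, read 8.15, 8.14 and 8.37 on WT-labelled and 7.53, 7.22 and 7.41 on KO-labelled arrays. It fell by 0.83 ± 0.14 (SE; adjusted p = 0.0354), and by 0.50 on centred arrays (adjusted p = 0.0462). Glycam1, a gene of the high endothelial venules through which lymphocytes enter a node, read 7.90, 8.09 and 8.06 against 7.51, 7.05 and 7.72 without passing (change -0.59 ± 0.19 SE, adjusted p = 0.0666). On average 10 of the 13 stromal genes were lower and 3 were higher, with Cxcl12 and Mfge8 among the latter. Cxcl12, a chemokine gene of stromal cells in many tissues, read 7.43, 7.42 and 7.30 against 7.64, 8.0 and 7.83 (change 0.44, adjusted p = 0.0573), and it passed on centred arrays at 0.77 (adjusted p = 0.0437). Mfge8, a gene of follicular dendritic cells that other tissues also use, was 0.51 higher without passing (adjusted p = 0.0898), with every KO-labelled value above the WT-labelled ones. With centred arrays 1 of the 13 was called lower and 1 higher, and the median change was 0.17, so the sign of the list's median depended on the scaling. How much of the node each sample held was not tested.

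**Figure D4:**
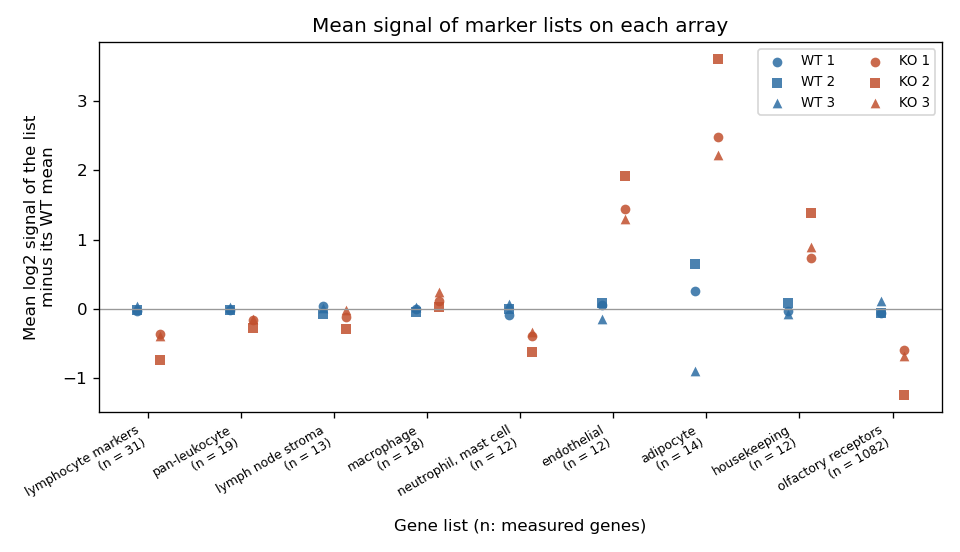
Mean log2 signal of 9 gene lists on each array (1 point per array, WT-labelled blue, KO-labelled red), less the mean of the 3 WT-labelled arrays for that list (vertical axis, log2). Lymphocyte, pan-leukocyte, lymph node stroma, neutrophil and mast cell, and olfactory receptor genes lie below 0 on all 3 KO-labelled arrays. Of these only the stroma list overlaps the WT-labelled points. Endothelial, adipocyte and housekeeping genes lie above the WT-labelled points.

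Markers of other cells moved beside the lymphocyte markers in both directions. Of 12 neutrophil and mast cell markers 5 fell (41.7%, against 15.6% of all probe sets) and 0 rose, with a median change of -0.46. On centred arrays 0 of the 12 were called. After quantile normalization 1 was called lower (3.35% of all probe sets), and without KO 2 also 1 (10.5% of all probe sets). Of 10 dendritic cell markers 0 passed (median change -0.38). Of 18 macrophage markers 3 rose and 2 fell (median change -0.02), and their mean log2 signal was 7.33 to 7.40 with the WT label and 7.40 to 7.61 with the KO label. Neither of the falls passed under either other scaling. On centred arrays 5 of the 18 rose and 0 fell (median change 0.31), after quantile normalization 4 rose and 0 fell, and without KO 2 0 fell. Of 12 endothelial markers 10 rose, with a mean log2 signal of 7.06 to 7.29 with the WT label and 8.50 to 9.12 with the KO label. Of 10 adipose progenitor markers 8 were higher on average (median change 0.25), and 1 rose, the matrix proteoglycan gene Dcn (change 2.32, adjusted p = 0.036), with 3 of the 10 called higher on centred arrays.

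Skeletal muscle markers were high on KO 1 and KO 2 and not on KO 3. The mean log2 signal of the 8 genes was 7.01, 6.91 and 6.91 on WT-labelled and 8.93, 10.68 and 6.86 on KO-labelled arrays. Atp2a1, the calcium pump gene of fast muscle fibres, read 7.19, 7.08 and 7.36 against 11.20, 13.39 and 7.12. With so wide a spread 0 of the 8 passed limma's test and 0 had an unadjusted p under 0.05 (median change 1.75). The muscle signal was highest on KO 2, the array on which 28 of the 31 lymphocyte markers were lowest or tied lowest. KO 2 also had the lowest median of all probe sets, at 6.47. The mean of the lymphocyte markers was 6.67, 6.30 and 6.63 on KO 1, KO 2 and KO 3. Without KO 2, 7 of 31 markers fell (10.5% of all probe sets). The mean of 12 housekeeping genes was 9.15 to 9.31 with the WT label and 9.95 to 10.61 with the KO label, and it too was highest on KO 2. Relative to that mean, a scaling chosen after seeing the data, the changes were -2.10 for Klrb1c, -2.01 for Ccr7, -1.74 for Cd3g and -1.11 for Prf1. This scaling lowers the change of every probe set by the same amount. Of the 12 housekeeping genes 6 were called higher, with a median change of 1.11. Prf1, at -0.10 as deposited, still lay above the median probe set. The part of muscle and of these other cells, of total RNA and of array scaling in the lower lymphocyte signal was not tested.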

How the data were processed

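The deposited table held 1 log2 signal per probe set and array for 6 arrays, 3 per group. The values are the authors' own, made with Transcriptome Analysis Console per the submitters' processing notes. Background correction, normalization, genome build, detection calls and scan dates are not stated. GEO's annotation, updated through RefSeq (GRCm38.p6), paired 31258 of 65956 probe sets with exactly 1 symbol, 1492 with several and 33206 with none. A gene with several probe sets was read by the one of highest mean signal. KO was compared with WT by limma 3.58.1 (lmFit, eBayes without trend) in R 4.3.3, with Benjamini-Hochberg adjustment over all probe sets, and the fit was tested on simulated data. Folds are powers of 2 of the log2 difference. Tfg was also compared in scipy 1.17.1. Members and 16 companion lists of 242 genes were chosen with earlier results of these data known. All members are named, with at most 4 genes of smallest p per companion list, and others where the text says so. The promoter motifs, the olfactory receptor and V segment classes and the scaling to housekeeping genes were chosen after seeing the data. No test was run over a list. Labels call the arrays biological replicates. Their number limits the precision.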

Additional observations from a re-analysis of the deposited data

How the results depend on the processing

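Alternatives are counted against 10 markers and 13791 probe sets called. Quantile normalization called 6244 probe sets and 2 markers, and centring on array medians 8405 and 1. Array weights called 22409 and 16, and a threshold of 0.10 called 30676 and 19. Leaving out probe sets below the median signal (mean under 6.83) left 9 markers, of which 6 were called. The median change of the markers was -0.177 after quantile normalization and -0.187 after centring. Leaving out 1 array at a time gave 0 to 14166 probe sets, 0 to 9 markers called lower, 0 called higher, a median change of -0.555 to -0.363, and 0.07 to 0.18 for Tfg. For Prf1 it gave -0.222 to 0.093. After quantile normalization 12 markers turned positive without passing, namely Cd8a (0.047), Cd5 (0.064), Zap70 (0.174), Klrd1 (0.028), Klrk1 (0.109), Gzma (0.041), Gzmb (0.067), Prf1 (0.254), Il7r (0.059), Cd79b (0.072), Pax5 (0.094) and Cd37 (0.009). The same 12 did so after centring, at 0.013, 0.04, 0.137, 0.06, 0.093, 0.027, 0.03, 0.227, 0.023, 0.047, 0.073 and 0.033 in the same order. With a replicate block, 11227 probe sets and 4 markers were called (Cd3g, Klrb1c, Ms4a1 and Ccr7). The numbers share no stated origin, same-numbered arrays deviated together at 0.002, 0.205 and 0.139, and not every array correlated best with its own number. The other alternatives called 10 to 14 markers. The causes were not tested. Detection calls were not used here, so no signal floor was set for any marker.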
